A study of Mus musculus with 12 samples.

Results

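Testes of mouse embryos labelled as Dmrt1 knockout were compared with wild-type testes in the 129Sv strain. The comparison used 3 arrays labelled as Dmrt1 knockout and 3 labelled as wild type, all at stage E15.5, where E stands for embryonic day. These 6 arrays were chosen by their labels for strain and genotype from the 12 arrays of the series. The other 6 held the same genotypes in the B6 strain. Each array measured total RNA of testes on 45101 Affymetrix probe sets, short probe groups that each report the transcript of a gene. An intensity of 16, or 4 on the log2 scale, was reached on at least 3 of the 12 arrays by 24852 probe sets, which is 55.1% of all. With 1 probe set kept for each gene, 12726 genes were tested.

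The series text describes the removal of Dmrt1 as conditional, whereas the samples are labelled as knockouts. A Cre driver, the cells in which the gene was removed and the alleles of the wild-type embryos were not given in the sources used here. By the growth protocol of the labels the embryos were P28, but every sample label has E15.5, which was followed. Whether the arrays came from separate animals or from pools is not in the labels, and p-values then reflect only the spread among these arrays, which may be technical. The tissue was the testis as a whole, so fewer cells of a type and less RNA per cell cannot be told apart in any result here.

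Dmrt1 encodes a transcription factor with a DM domain, a zinc-binding fold that contacts the minor groove of DNA, and the fetal testis carries it in germ cells and in Sertoli cells. At this stage male germ cells, called prospermatogonia or gonocytes, leave the cell cycle, shut down the pluripotency genes that primordial germ cells share with the early embryo, and start the piRNA pathway and new DNA methylation. In 129 strains some germ cells fail to do so and form teratomas, tumours that hold many tissues. The genes of these programmes and the markers of the other cells of the testis are therefore described as groups, after the targeted gene.

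The median intensities of the 6 arrays were 17.3 to 18.3. The deposited values had been processed to equalise the arrays, so these medians do not describe the arrays' own brightness. Arrays of 1 group correlated across genes with r of 0.989 to 0.996. The 3′ over 5′ signal ratio of the control gene Actb, a measure that climbs as RNA is degraded, was 5.24 on knockout replicate 1 and 3.91 on wild-type replicate 2. It was 2.50 to 2.75 on the other 4. All knockout titles and that of wild-type replicate 2 carry the number 7 before a strain code, whereas wild-type replicates 1 and 3 carry 11. The meaning of this number was not given in the sources used here. Knockout replicate 3 stood apart from the other knockout arrays in 1 direction, as described after the overall counts.

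Dmrt1 was lower on every knockout array. Its intensities, given here and throughout in the order of replicates 1, 2 and 3, were 1183, 924 and 1014 in wild type and 173, 145 and 182 in knockout. The groups were far apart, and the knockout kept 16.03% of the wild-type signal. The log2 difference, knockout minus wild type, was -2.64 ± 0.17 (SE, n = 3 per group, limma Benjamini-Hochberg adjusted p = 4.72e-07). A two-sided exact permutation test gave p = 0.1, the smallest value that 3 arrays against 3 can give. Of Dmrt1 there is 1 probe set, whose place relative to the removed part of the gene is unknown here.

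Among the tested genes nearest to Dmrt1 in RefSeq order, 1 rose, 2 fell and the others did not pass. Dmrt3, a DM domain gene and the next tested gene on one side, had intensities of 35.1, 41.8 and 34.7 in wild type and 146, 104 and 182 in knockout. All knockout arrays were higher, with a log2 difference of 1.92 ± 0.23 (limma adjusted p = 7.88e-05). Dock8, an activator of small GTPases on the other side of Dmrt1, was lower in the knockout by a log2 difference of -1.51 ± 0.22 (limma adjusted p = 0.000504). Pgm5, further out on the Dock8 side, was also lower, by -0.84 ± 0.24 (limma adjusted p = 0.0433). Kank1 lies between Dock8 and Dmrt1 and differed by 0.49 ± 0.15, which did not pass (limma adjusted p = 0.0592). Smarca2, the tested gene beyond Dmrt3, differed by -0.02 ± 0.10 (limma adjusted p = 0.939). Of the other DM domain genes tested, Dmrta1, Dmrtc1a and Dmrtc2 did not pass.

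Across all genes, 1058 passed limma at an adjusted p under 0.05, which is 8.31% of the 12726 tested. Of these, 518 were higher in the knockout, 4.07% of tested genes, and 540 were lower, 4.24%. The difference was below 1 on the log2 scale for 509 of the 1058. A log2 difference of at least 2 was seen for 57 of the higher genes and 73 of the lower genes, and one of at least 3 for 19 and 12. The median difference was 0.94 over the genes called higher and -1.10 over those called lower, beside -0.006 over all tested genes. On 1051 of the 1058 genes the knockout and wild-type arrays did not overlap, whereas they did not overlap on 28.8% of all tested genes.

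**Figure D1:**
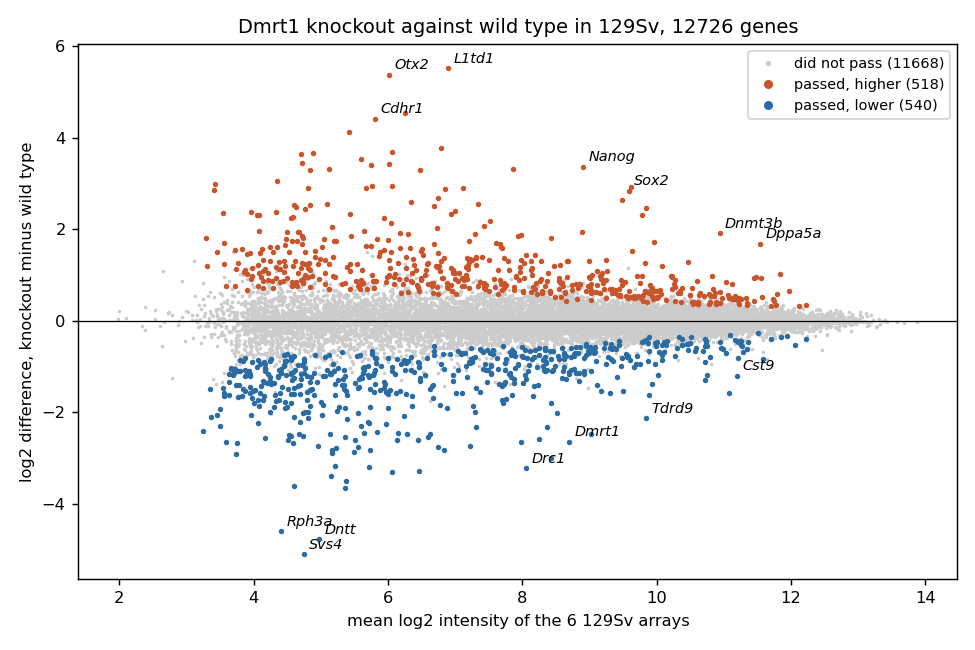
Log2 difference of each of the 12726 tested genes (vertical axis, knockout minus wild type) against its mean log2 intensity over the 6 129Sv arrays (horizontal axis). Red points are the 518 genes that passed higher, blue points the 540 that passed lower, and grey points did not pass, with Nanog, Sox2 and Dnmt3b standing out among genes of higher intensity.

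Some genes went from near background to a clear signal. Below 16 on all wild-type arrays and at 32 or more on all knockout arrays were 25 genes, among them Otx2, Cdhr1, Trh and Eomes. The opposite, at least 32 in wild type and below 16 on every knockout array, was seen for 7 genes, among them Svs4, Dntt, Rph3a and Asb17. For genes with a group mean below 16 the fold change was computed against an intensity of 16 and is given as "at least". Measured folds are ratios of geometric means.

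The number of genes called depended on single arrays. It was 626 without knockout replicate 2, 642 without wild-type replicate 1, 654 without wild-type replicate 3 and 685 without knockout replicate 1. It was 1562 without B6 knockout replicate 3, an array that enters only through the shared estimate of the spread. The number of the titles, 7 or 11, was also used as a covariate. Among the 129Sv arrays it is 11 only on wild-type replicates 1 and 3. That fit therefore set the knockout arrays against wild-type replicate 2 alone, and Dmrt1 differed by -2.48. Calls lost with this covariate, here and below, cannot tell an effect of the number from the smaller wild-type group. Without knockout replicate 1 and wild-type replicate 2, the arrays with the highest Actb ratios, 484 passed, of which 464 were among the 1058.

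The genes that fell did not fall equally on the knockout arrays. Over the 540 lower genes, the median distance from the wild-type mean was -1.18 on knockout replicate 1, -1.30 on replicate 2 and -0.83 on replicate 3. Knockout replicate 3 was the array closest to wild type for 371 of the 540, or 68.7%. Over the 518 higher genes the medians were nearer each other, at 0.98, 0.95 and 0.89, and replicate 3 was the closest for 257, or 49.6%. Its Actb ratio of 2.73 was within the range of the other arrays with low ratios.

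**Figure D2:**
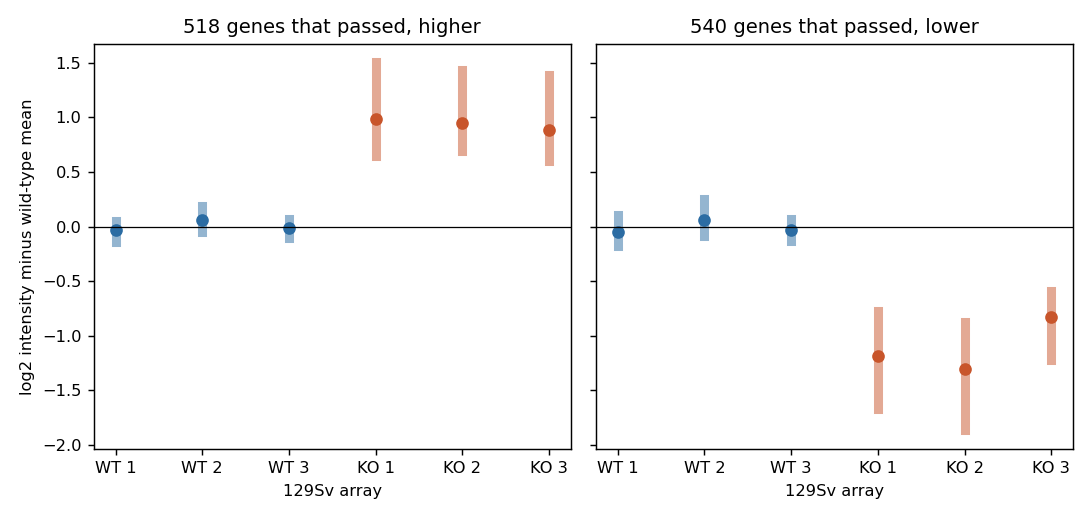
Distance of each 129Sv array from the wild-type mean, as log2 intensity, over the genes that passed higher (left) and lower (right). Points are medians over genes and bars run from the lower to the upper quartile. Knockout replicate 3 lies nearest to wild type among the genes called lower, at a median of -0.83.

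Genes of the pluripotency transcription network rose in the knockout. Of 19 tested, 12 rose, 1 fell and 6 did not pass, beside 4.07% and 4.24% of all genes. The median difference was 0.89 against -0.006 over all genes. The shares of 4.07% and 4.24% stand beside each list below as well. Members of the lists were chosen with earlier results of these data known, so the counts describe the lists and do not test them. Nanog, which encodes a homeodomain factor that holds cells in the pluripotent state, had intensities of 179, 157 and 119 in wild type and 1424, 1808 and 1413 in knockout. Its knockout arrays were all far above the wild type, by 10.3-fold (log2 difference 3.37 ± 0.22, limma adjusted p = 4.72e-07). Sox2, an HMG box factor that binds DNA together with OCT4, went from 330, 338 and 213 to 2026, 2203 and 1961. Those 3 knockout values lay close together and well apart from the wild type, a 7.17-fold rise (limma adjusted p = 4.67e-06).

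Further members rose on all 3 knockout arrays. Esrrb, an orphan nuclear receptor of the naive pluripotent state, had 43.9, 54.2 and 32.4 in wild type and 383, 337 and 232 in knockout (7.30-fold). Nr5a2, a nuclear receptor that can drive Pou5f1 expression, had 40.5, 27.2 and 32.02 against 259, 176 and 174 (6.08-fold). Neither gene's groups overlapped. Prdm14, which primordial germ cells need for their specification, was at 9.49 to 11.6 in wild type, below the intensity of 16, and at 45.3 to 58.4 in knockout, at least 3.19-fold higher. Klf5, a zinc finger factor of the network, was at 23.3 to 29.2 against 89.95 to 116 (3.91-fold). Zfp42, also known as Rex1, was at 225, 246 and 261 against 946, 1107 and 770, with no overlap (3.82-fold).

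Smaller rises passed for Prdm1, the gene of BLIMP1 that represses somatic genes in primordial germ cells (2.70-fold), and for Klf2 (2.44-fold). Klf4, a relative of Klf2 and Klf5, moved the other way, with 370, 372 and 361 in wild type and 150, 102 and 227 in knockout. All 3 knockout arrays of Klf4 were lower, with replicate 3 the closest to wild type (2.43-fold, limma adjusted p = 0.0034). Its adjusted p was 0.0507 without the 2 arrays of the highest Actb ratios, and Prdm14, Prdm1, Klf2 and Klf4 did not pass with the title number as a covariate. With that covariate 6 members rose.

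The rises of Mycn, Sall4 and Utf1 were near the threshold. Mycn (1.56-fold) lost its call without knockout replicate 2 (limma adjusted p = 0.0659). Sall4 (1.27-fold) lost it without any of the 129Sv arrays except knockout replicate 2 (adjusted p up to 0.164), and Utf1 (1.73-fold) without any except wild-type replicate 2 (adjusted p up to 0.193). Both also lost it without B6 wild-type replicate 2. Pou5f1, the gene of OCT4, had 752, 1051 and 851 in wild type and 1366, 1250 and 1293 in knockout. Those groups did not overlap, yet the difference of 0.57 ± 0.21 did not pass (limma adjusted p = 0.108). Pou5f1 passed with the Actb ratio as a covariate, with array weights, with the 129Sv arrays alone and without B6 knockout replicate 3. Tfap2c at 0.89 ± 0.37 and Nr0b1 at 0.54, both also higher on average, and Tfcp2l1 at -0.51 did not pass either.

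Genes that mark pluripotent cells without being part of the network changed in the same direction. Of 19 tested, 13 rose, none fell and 6 did not pass, and their median log2 difference was 1.43. L1td1, an RNA-binding protein gene derived from a LINE-1 element, had 25.4, 16.9 and 12.8 in wild type and 960, 1018 and 535 in knockout. The wild-type arrays were near background and the knockout arrays far above it, 45.7-fold higher. Gdf3, a TGF-beta family ligand, had a mean of 18.9 ± 3.56 (SD, n = 3) against 258, 270 and 199 (12.9-fold), and Eras, an embryonic stem cell member of the Ras family, 26.0, 36.3 and 28.1 against 520, 389 and 333 (13.7-fold).

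Cdh1, the gene of E-cadherin, the adhesion protein of epithelia and of early germ cells, rose from 421, 326 and 440 to 2288, 2358 and 1835. Fbxo15, an F-box gene and a classic OCT4 target, rose from 368, 462 and 363 to 1772, 1861 and 2257. In both genes the 3 knockout arrays were several times the wild type, by 5.48-fold and 4.94-fold. Dppa5a rose 3.21-fold, Tcl1, a coactivator of the kinase AKT, 3.58-fold, and Dppa3, also called Stella, 1.90-fold. Lin28a, which blocks the maturation of let-7 microRNAs, rose 2.88-fold, Mybl2 2.47-fold and Alpl, the tissue-nonspecific alkaline phosphatase used to stain primordial germ cells, 1.76-fold. With the title number as a covariate, Dppa3, Lin28a, Mybl2 and Alpl did not pass. Dppa4, Dppa2, Trim71, Tet2, Fut4 and Epcam did not pass, with log2 differences between -0.13 and 0.73.

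**Figure D3:**
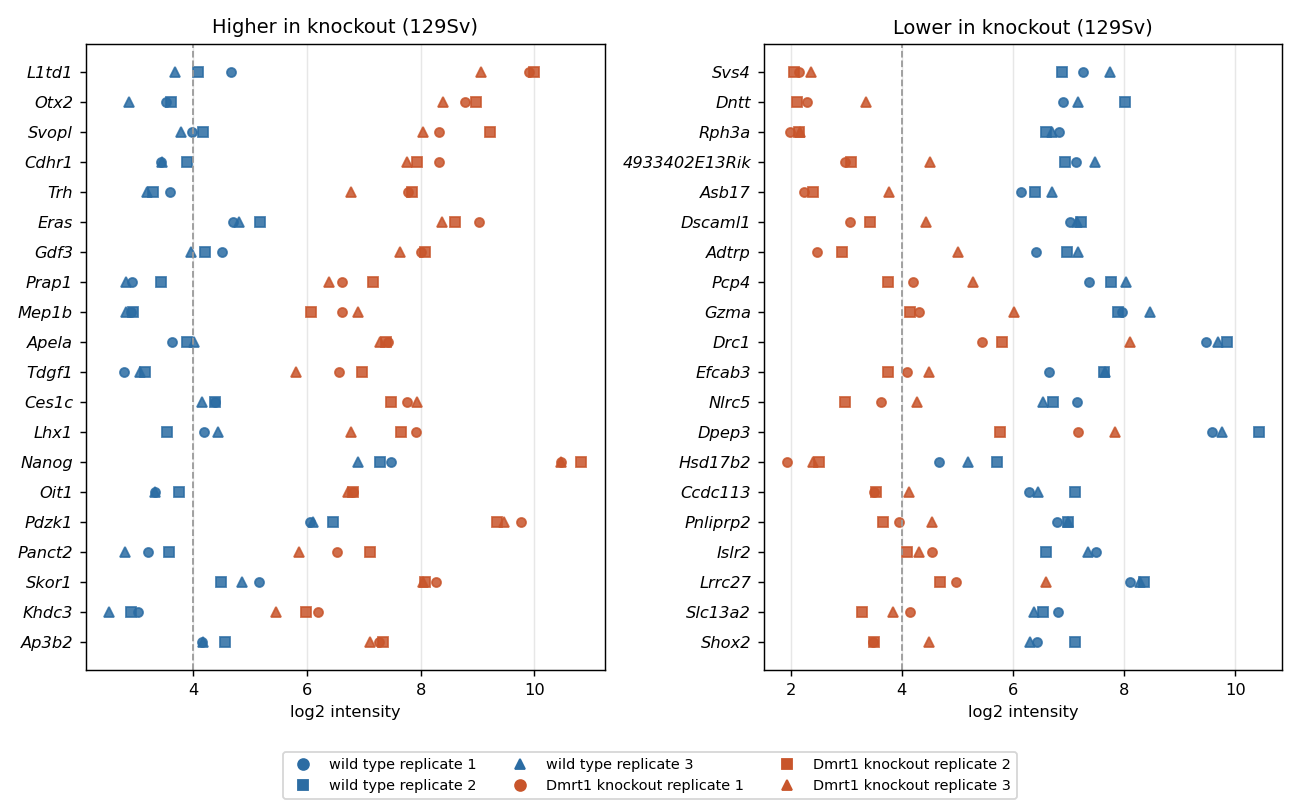
Log2 intensity on each 129Sv array of the 20 genes with the largest rise (left) and the largest fall (right) among genes that passed, had no overlap between groups and a mean log2 intensity of at least 5 in the higher group. Blue is wild type, red is knockout, the marker shape is the replicate, and the dashed line is a log2 intensity of 4. In the right panel knockout replicate 3 is the highest knockout array for 17 of the 20 genes, for example Drc1 with 275 against 43.3 and 55.4.

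The promoters of some of these genes are shown because DM domain proteins bind a palindromic core that can be searched for in them. The core searched was ACANTGT, which is its own reverse complement, so both strands were covered at once. Of the 20 genes with the largest rise 18 had a promoter in the table, and of the 20 with the largest fall 17 did. Not all of these promoters were searched, so the genes named next may not be a full list. Among those searched, the promoters of Svopl, Eras and Nanog held the core in the 250 bases before the gene start. They are given 5′ to 3′ on the strand of the gene, from RefSeq on GRCm38.p6, with the core in capitals. Svopl, a gene related to synaptic vesicle protein 2, lies at chr6:38046997-38047246 on the minus strand, Eras at chrX:7928608-7928857 on the minus strand, and Nanog at chr6:122707239-122707488 on the plus strand.
Svopl: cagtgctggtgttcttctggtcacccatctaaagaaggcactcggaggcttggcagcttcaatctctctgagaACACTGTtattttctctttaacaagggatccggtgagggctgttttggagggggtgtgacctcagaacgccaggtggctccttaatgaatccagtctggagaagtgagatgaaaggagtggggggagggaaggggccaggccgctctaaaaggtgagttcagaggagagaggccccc
Eras: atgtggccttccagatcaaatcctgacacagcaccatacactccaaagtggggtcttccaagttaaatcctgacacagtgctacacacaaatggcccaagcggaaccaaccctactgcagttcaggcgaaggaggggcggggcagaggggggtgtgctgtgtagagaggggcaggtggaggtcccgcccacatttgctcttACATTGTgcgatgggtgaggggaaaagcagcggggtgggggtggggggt
Nanog: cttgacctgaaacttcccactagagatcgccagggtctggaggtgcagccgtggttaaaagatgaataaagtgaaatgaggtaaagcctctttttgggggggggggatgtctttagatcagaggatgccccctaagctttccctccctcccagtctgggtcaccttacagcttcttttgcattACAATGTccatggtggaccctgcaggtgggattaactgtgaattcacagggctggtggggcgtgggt

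The core begins 177 bases before the start of Svopl, 49 before that of Eras and 67 before that of Nanog. In Nanog these letters overlap the well-known element to which OCT4 and SOX2 bind together. Counted over promoters of 250 bases before to 50 bases after the start, the core was present in 7.54% of all 32851 promoters. Counted by gene, with a match in any of its promoters, the core was present in 4.98% of the 10269 tested genes with a promoter. It was present in 7.28% of the 412 genes called higher that had a promoter in the table, and in 4.55% of the 418 called lower. These matches describe letters in the genome, and binding was not measured.

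Several genes of the epiblast, the tissue from which the embryo forms, rose in the knockout. Of 24 epiblast and germ layer genes, 23 were on the array and 14 passed the intensity filter. Of the 14 tested, 7 rose, 1 fell and 6 did not pass, with a median of 1.18. A gene at background in 129Sv wild type, such as Otx2, could pass the filter only through other arrays. The share and the median can therefore lean towards rises. Otx2, a homeobox factor of the epiblast and forebrain, had 11.4, 12.3 and 7.30 in wild type and 438, 500 and 336 in knockout. It was at background in wild type and at least 26.2-fold higher in knockout (limma adjusted p = 5.35e-07). Pou3f1, the gene of the epiblast factor OCT6, rose from 45.1, 50.8 and 57.4 to 390, 411 and 345 (7.49-fold). Sox3, an HMG box gene close to Sox2 in sequence, rose from 23.6, 23.0 and 25.8 to 302, 204 and 101, the 3 knockout values being widely spread but all above the wild type (7.63-fold).

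Apela, which encodes a peptide ligand of the apelin receptor, was at 12.3, 14.8 and 16.1 in wild type and at 172, 168 and 156 in knockout, at least 10.3-fold higher. Its receptor gene Aplnr differed by 0.14 and did not pass. Eomes, a T-box gene of mesoderm and endoderm formation, was at 9.88, 10.1 and 10.9 against 70.3, 112 and 57.4, at least 4.80-fold higher. Zic2, a zinc finger gene of the epiblast and neural plate, rose 3.44-fold, and Lhx1, a LIM homeobox gene of the organiser and the nephric duct, 10.5-fold. The endoderm genes Sox17 at -0.05 and Gata6 at -0.10 did not pass. Afp, the gene of alpha-fetoprotein, fell from 1574, 1560 and 1869 to 346, 552 and 804, with all knockout arrays lower (3.10-fold), but it did not pass with the title number as a covariate or without the 2 arrays of the highest Actb ratios (limma adjusted p = 0.0508).

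Nodal signalling, which keeps epiblast cells undifferentiated and sets up the body axes, changed in its ligand, its coreceptor and an inhibitor. Nodal, the ligand, had 25.5, 36.0 and 24.2 in wild type and 112, 139 and 151 in knockout (4.74-fold, limma adjusted p = 3.28e-05). Its coreceptor gene Tdgf1, also called Cripto, was at 6.87, 8.84 and 8.35 against 94.6, 125 and 55.9, so that the wild type was at background and each knockout array was not (at least 5.44-fold). Lefty1, a secreted inhibitor that Nodal induces, was at 8.27 to 9.96 against 53.7, 53.04 and 34.1 (at least 2.87-fold).

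The receptors and SMAD genes of the Nodal pathway did not pass, with log2 differences between -0.16 and 0.14 for Acvr1b, Acvr1c, Acvr2a, Acvr2b, Smad2, Smad3 and Smad4. Lefty2, the gene closest to Lefty1, was at 834, 624 and 932 against 859, 722 and 995, with overlapping groups (0.12 ± 0.17, limma adjusted p = 0.77). Foxh1, the DNA-binding partner of the SMADs, was at least 1.97-fold higher and did not pass with the title number as a covariate or without the 2 arrays of the highest Actb ratios (limma adjusted p = 0.114). Of all 20 Nodal and activin genes tested, 4 rose, 1 fell and 15 did not pass, with a median of 0.06. Of those that rose, Tdgf1 and Lefty1 were at background on all wild-type arrays and passed the intensity filter only through other arrays. The share can therefore lean towards rises. The one that fell was Inhbb, described with the Sertoli cells, and without any one of knockout replicates 1 and 2 and wild-type replicates 1 and 2 none fell. Where the filter was raised to a log2 intensity of 6, 1 rose.

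Among 29 genes of Wnt signalling, 9 rose, 1 fell and 19 did not pass, with a median of 0.26. Lef1, a transcription factor that works with beta-catenin, rose from 1658, 1689 and 1713 to 2976, 2990 and 2873, a small change with very little spread within each group (1.75-fold, limma adjusted p = 0.000626). Rspo1, a ligand that strengthens Wnt signals and is needed in the ovary, rose from 98.3, 120 and 143 to 370, 406 and 309 (3.02-fold). The receptor genes Fzd5 and Fzd7 rose 2.33-fold and 1.55-fold, and Wif1, a secreted Wnt inhibitor, was at least 2.73-fold higher. Rspo2, a relative of Rspo1, fell from 51.1, 49.3 and 32.1 to 10.7, 9.09 and 16.6 (at least 2.70-fold).

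Calls of the remaining Wnt genes rested on single arrays. Sp5 lost the call without any one of the 6 arrays and Wnt3 without any except knockout replicate 1 (limma adjusted p up to 0.111 and 0.14). Sfrp2 lost it without knockout replicate 1 or 3 or wild-type replicate 1 or 3, and Fzd2 without knockout replicate 2 or 3 or wild-type replicate 1 or 2 (limma adjusted p up to 0.128 and 0.117). The count of risen Wnt genes was 5 without knockout replicate 3 and 5 without wild-type replicate 1. Axin2, a common readout of Wnt activity, was at 380, 310 and 389 against 310, 448 and 465 with overlap between the groups (0.17 ± 0.21, limma adjusted p = 0.739).

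In the FGF pathway, which acts through receptor tyrosine kinases and ERK, the receptors Fgfr1, Fgfr2, Fgfr3 and Fgfr4 did not pass, at -0.28 to 0.43. Of its 17 tested genes, 4 rose and 1 fell, with a median of 0.34. Dusp4, a phosphatase induced by ERK, rose from 35.7, 65.2 and 45.5 to 128, 125 and 121 (2.64-fold), and Etv5, an ETS factor downstream of FGF and GDNF, from 853, 598 and 723 to 1433, 2186 and 1421 (2.29-fold). Fgf13, an intracellular member of the FGF family, fell from 948, 702 and 665 to 407, 351 and 310 (2.16-fold). The groups did not overlap in any of the 3, but Etv5 did not pass without the 2 arrays of the highest Actb ratios (limma adjusted p = 0.0658) and Dusp4 and Fgf13 did not pass with the title number as a covariate. Spry2 and Spred2, both inhibitors of ERK signalling, also rose, but neither did without knockout replicate 1 or 2 or wild-type replicate 3 (limma adjusted p up to 0.185 and 0.166). The count of risen FGF genes was 2 without knockout replicate 1, without knockout replicate 2 or without wild-type replicate 3. Adding the title number as a covariate left 1.

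Of 19 BMP genes 3 rose (Bmp7, Id3 and Msx1) and 1 fell (Msx2). Bmp7 encodes a ligand, and the others are common targets of BMP signals. Without knockout replicate 1 or without wild-type replicate 1 no BMP gene rose, 1 rose without wild-type replicate 2 or 3, and 2 rose without knockout replicate 2. Without B6 knockout replicate 3, 6 rose, and without B6 wild-type replicate 3, 5 did. The fall of Msx2 was lost without knockout replicate 1 or 2 or wild-type replicate 2 or 3 (limma adjusted p up to 0.0635).

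Retinoic acid signalling, which pushes germ cells towards meiosis, changed most in a binding protein. Crabp2, which carries retinoic acid to its nuclear receptors, rose from 217, 291 and 372 to 2178, 1829 and 2521, 7.53-fold and with a wide gap between the groups (limma adjusted p = 2.86e-06). The enzyme genes of retinoic acid did not pass, with Aldh1a2, which makes it, at 0.49 ± 0.16 (limma adjusted p = 0.0804) and Cyp26b1, which degrades it in Sertoli cells, at -0.40 ± 0.17 (limma adjusted p = 0.201). Stra8, the retinoic acid target that opens meiosis, was at 16.2, 19.9 and 18.1 against 25.02, 14.9 and 23.9, near background in both groups. Rarg rose 1.77-fold and Rxra fell 1.47-fold among the 17 genes tested, Crabp2 being the other that rose. Rarg lost its call without knockout replicate 1 or wild-type replicate 1 or 2, leaving 1 risen gene, and Rxra without knockout replicate 2 or wild-type replicate 2, leaving none fallen (limma adjusted p up to 0.0599 and 0.0741).

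The enzymes that place DNA methylation differed from each other, and of 16 genes of this list 3 rose (Dnmt3b, Tet1 and Hells) and 1 fell (Morc1). Dnmt3b, a de novo methyltransferase of the embryo, rose from 1128, 961 and 953 to 3819, 4221 and 3430, a 3.77-fold rise (limma adjusted p = 5.26e-07). A second Dnmt3b probe set differed by 2.89 on the log2 scale. Dnmt3a, the other de novo enzyme, was at 2552, 3579 and 2666 against 2613, 2114 and 3055, with overlap (limma adjusted p = 0.655). Dnmt3l, the cofactor that prospermatogonia need for methylation, had 1890, 2267 and 2096 against 1032, 899 and 1761. Its 3 knockout arrays were all lower, knockout replicate 3 by the least, and the difference of -0.82 ± 0.52 did not pass (limma adjusted p = 0.411). With the 129Sv arrays alone Dnmt3l passed. The maintenance genes Dnmt1 and Uhrf1 differed by 0.05 ± 0.09 and 0.04 ± 0.09. Hells lost its call without knockout replicate 1 or 2 or wild-type replicate 2, and Morc1 without these or wild-type replicate 3, which left no fallen gene (limma adjusted p up to 0.0874 and 0.146). Tet1, which oxidises methylated cytosine, rose 2.69-fold but did not pass without the 2 arrays of the highest Actb ratios (limma adjusted p = 0.0656), which left 1 risen gene.

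General germ cell genes showed no common direction. Of 17 tested, 3 rose, 1 fell and 13 did not pass, with a median of 0.02. Their summed intensity was 26000 to 27580 in wild type and 23470, 28250 and 30260 in knockout, so that the groups overlapped. Ddx4, an RNA helicase of germ cells, had 4059, 3851 and 4216 against 3313, 4519 and 4619, and Dazl, an RNA-binding protein of germ cells, 2784, 2474 and 2975 against 3527, 3798 and 3577. Neither passed, with limma adjusted p of 0.958 and 0.275, although the Dazl arrays did not overlap. Dazl passed with the Actb ratio as a covariate, with the 129Sv arrays alone and without B6 knockout replicate 3. The risen genes were Sohlh2, a bHLH factor of spermatogonia and oocytes, from 20.7, 20.3 and 15.2 to 182, 160 and 91.8 (7.49-fold), Elavl2 (1.98-fold) and Rnf17 (1.98-fold).

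Rnf17 rested on its probe set. Another of its probe sets differed by -0.66, and the call was lost when the probe sets of a gene were averaged. The gene that fell was Brdt, a bromodomain gene of male germ cells, from 531, 880 and 571 to 193, 118 and 280 (3.47-fold). Without the 2 arrays of the highest Actb ratios its limma adjusted p was 0.074. Sohlh1, the partner of Sohlh2, was at 131, 194 and 118 against 42.4, 34.0 and 164. Replicate 3 of the knockout was within the wild-type range and the other 2 below it, and Sohlh1 did not pass (-1.22 ± 0.49, limma adjusted p = 0.155).

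Genes of spermatogonial stem cells and of GDNF signalling moved both ways, 6 up and 6 down of 25 tested. Zbtb16, the gene of PLZF that maintains spermatogonial stem cells, fell from 91.4, 99.8 and 118 to 40.6, 21.1 and 24.99 (3.69-fold, limma adjusted p = 0.000333). A second Zbtb16 probe set differed by -1.69. Gdnf, the Sertoli cell ligand, fell from 153, 130 and 134 to 63.3, 49.9 and 60.9 (2.40-fold), and its receptor tyrosine kinase gene Ret from 47.2, 46.4 and 41.5 to 17.1, 13.4 and 14.2 (at least 2.81-fold). All knockout arrays of these 3 genes were lower than all wild types. The coreceptor gene Gfra1 was near background in both groups, and Bcl6b, a repressor downstream of GDNF, fell 2.24-fold. Those that rose were Lhx1 and Etv5, known targets of GDNF, with Sohlh2, Pou3f1, Utf1 and Lin28a. Egr2 and Cdh15 also fell, but Cdh15 lost its call without any one of the 129Sv arrays except knockout replicate 3 (limma adjusted p up to 0.118), and 3 genes of the list fell with the title number as a covariate.

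The piRNA pathway, in which PIWI proteins and small RNAs silence transposons, had 2 genes that fell and 2 that rose of 21 tested, with a median of -0.28. The arrays of the knockout differed in it. Summed over the genes, the intensity was 38750, 42750 and 39670 in wild type and 28430, 31930 and 39790 in knockout, with replicate 3 at the wild-type level. Tdrd9, a helicase of the pathway, had 1595, 2709 and 1628 against 391, 242 and 884 (4.38-fold lower, limma adjusted p = 0.0118), and Piwil1 145, 126 and 134 against 31.1, 31.9 and 87.0 (3.05-fold lower). Both calls depended on single arrays, and without knockout replicate 2 the limma adjusted p was 0.0741 for Tdrd9 and 0.0858 for Piwil1. The genes that rose were Rnf17 and Tdrd12, and Tdrd12 did not without knockout replicate 2 or 3 or wild-type replicate 1 or 3, leaving 1 (limma adjusted p up to 0.0775).

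Other piRNA genes were lower on knockout replicates 1 and 2 than on replicate 3. Piwil4, which guides DNA methylation to transposons, had 4280, 3859 and 4727 against 1866, 2259 and 3251 (-0.84 ± 0.28, limma adjusted p = 0.0829). Mov10l1, an RNA helicase, had 3474, 5083 and 3365 against 2161, 1988 and 3316, and Tdrd1 59.4, 67.0 and 70.0 against 18.7, 25.4 and 56.1. None of the 3 passed, although their groups did not overlap. Piwil4 passed under 8 of 27 alternatives, the 129Sv arrays alone among them. Without knockout replicate 3 the count of piRNA genes that fell was 7, and that of general germ cell genes that fell was 4. Without knockout replicate 2 no piRNA gene fell, and without any one of the other 4 arrays 1 did. What sets replicate 3 apart was not tested.

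Of 28 meiosis genes, 5 rose and 1 fell, with a median of 0.21. Mei4, needed for meiotic DNA breaks, was at 8.83 to 11.7 in wild type and at 75.7, 61.8 and 43.7 in knockout, at least 3.68-fold higher (limma adjusted p = 2.96e-05). Hormad2, a protein of unsynapsed chromosome axes, rose from 18.3, 22.5 and 19.8 to 55.0, 49.1 and 40.0 (2.36-fold), and Sycp1, the transverse filament of the synaptonemal complex, from 318, 514 and 461 to 977, 826 and 888 (2.12-fold). Smc1b rose 2.13-fold and Rec8 1.88-fold, both cohesin genes of meiosis, but Rec8 did not without knockout replicate 1 or wild-type replicate 1 (limma adjusted p up to 0.0608). With the title number as a covariate 1 of the 5 passed. Tex15 fell 1.79-fold, and its limma adjusted p reached 0.104 without knockout replicate 2. Without any one of knockout replicates 1 and 2 and wild-type replicates 1 and 2 no meiosis gene fell, and without knockout replicate 3 the number was 4. Sycp3, Stag3 and Dmc1 did not pass, at 0.32, -0.71 and 0.15.

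Markers of haploid germ cells, which appear only after birth, were mostly at or near background. Of 32 such genes and testis isoforms 13 were tested, and the acrosome and protamine genes Acr, Acrv1, Prm2 and Tnp2 were not among them. Prm1 was at 18.2 to 26.5 on all 6 arrays, near background. Of the 13, 5 fell and 1 rose. A gene below 16 on all knockout arrays, such as Asb17, could pass the intensity filter only through other arrays. The share can therefore lean towards falls. Ldhc, the germ cell lactate dehydrogenase, fell from 252, 459 and 379 to 55.8, 50.4 and 127 (4.97-fold), and Tekt1, a tektin of cilia and sperm tails, from 136, 203 and 165 to 24.8, 22.2 and 49.7 (5.50-fold). Asb17, a testis gene of an ankyrin repeat protein, fell from 70.8, 84.0 and 104 to 4.73, 5.25 and 13.5 (at least 5.32-fold). The falls of Tnp1 and Akap4, at intensities of 15.7 to 55.4 in wild type, were lost without knockout replicate 1, without knockout replicate 2 or without wild-type replicate 2 (limma adjusted p up to 0.0938 and 0.0836), which left 3 fallen. The gene that rose, Spaca1, an acrosome membrane protein, did not without any one of the 6 arrays (limma adjusted p up to 0.16).

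Genes of cilia and axonemal dynein changed without a common direction, with 3 of 17 risen and 5 fallen. Without knockout replicate 2, 1 rose and 4 fell. Drc1, a part of the nexin-dynein complex, fell from 712, 921 and 822 to 43.3, 55.4 and 275, with replicate 3 between the wild type and the other knockouts (9.35-fold, limma adjusted p = 0.000882). Hydin, a protein of the central pair of cilia, was at 26.6, 46.5 and 31.5 against 4.82, 5.43 and 5.86, at background in all 3 knockouts (at least 2.12-fold lower). It could pass the intensity filter only through other arrays, so the share that fell can lean high. Ccdc40 was at least 2.64-fold lower. Dnaic1, a dynein intermediate chain, rose from 29.1, 30.2 and 32.4 to 99.6, 96.7 and 87.5 (3.09-fold).

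**Figure D4:**
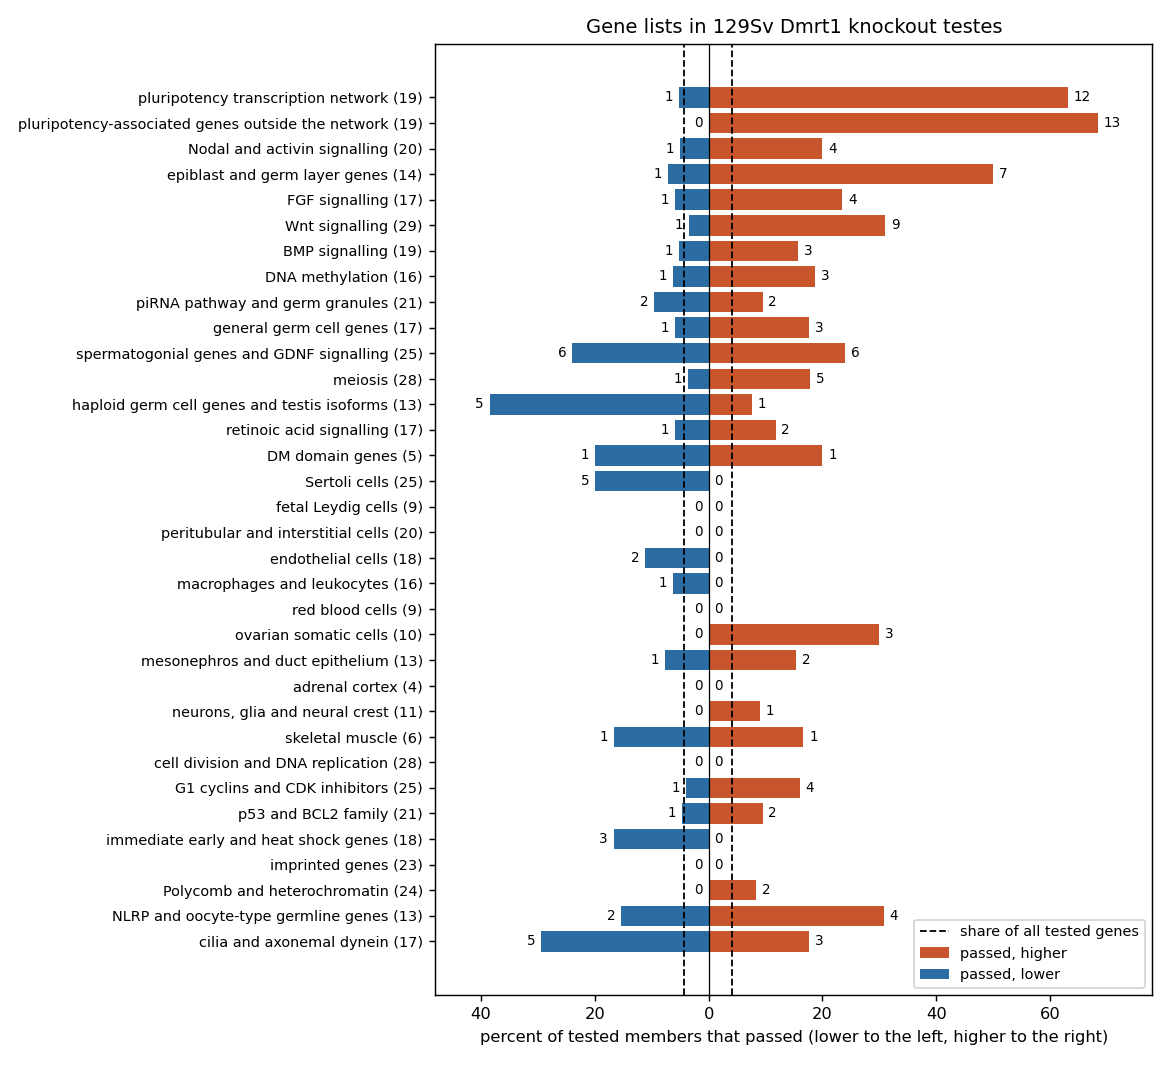
Percent of the tested members of each gene list that passed higher (red, to the right) or lower (blue, to the left) in 129Sv, with the number of genes beside each bar and the number tested in brackets. The dashed lines mark the 4.07% and 4.24% of all tested genes that passed in each direction. Members were chosen with earlier results of these data known. The 2 pluripotency lists and the epiblast list have the longest bars to the right.

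The genes with the largest falls were of varied function. Svs4, a seminal vesicle secretory protein gene, had 153, 118 and 215 in wild type and 4.42, 4.16 and 5.15 in knockout, at least 9.83-fold lower and at background on all 3 arrays. Rph3a, a partner of RAB3 in vesicle release, had 114, 96.3 and 104 against 3.97, 4.45 and 4.49 (at least 6.54-fold, limma adjusted p = 3.48e-08). Dntt, the terminal transferase of lymphocytes, had 120, 259 and 143 against 4.91, 4.33 and 10.2 (at least 10.3-fold). In these 3 genes no knockout array was above background.

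Gzma, a granzyme gene, had 251, 238 and 354 against 19.8, 17.6 and 65.1 (9.77-fold), and Pcp4, a calmodulin-binding peptide gene, 164, 218 and 263 against 18.4, 13.4 and 38.7 (9.96-fold). Dpep3, a membrane dipeptidase of male germ cells, had 764, 1374 and 870 against 144, 54.6 and 229 (7.98-fold). Knockout replicate 3 was the highest knockout array in all 3. Among genes with a mean log2 intensity of at least 10 in wild type, Vwf, the gene of von Willebrand factor, fell from 1107, 1462 and 1140 to 164, 133 and 488 (5.57-fold). Ptgr1, a prostaglandin reductase, fell from 3470, 3883 and 3799 to 1170, 1157 and 1433 (2.98-fold), and Mt1, a metallothionein, 2.97-fold. Mt1 did not pass without the 2 arrays of the highest Actb ratios (limma adjusted p = 0.0699).

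Other large rises were of genes with no place in the lists. Cdhr1, a cadherin of photoreceptors, had 10.8, 14.9 and 11.0 in wild type and 320, 244 and 217 in knockout (at least 16.1-fold). Trh, which encodes thyrotropin-releasing hormone, had 12.1, 9.75 and 9.08 against 220, 232 and 110 (at least 11.1-fold), and Pdzk1, a scaffold of membrane transporters, 66.5, 87.9 and 69.2 against 870, 652 and 703 (9.96-fold). Skor1, a SKI family corepressor, had 35.7, 22.6 and 28.9 against 308, 269 and 265 (9.80-fold). The groups did not overlap in any of these genes, and Trh varied most among the knockout arrays.

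Several genes best known from oocytes changed as well, with 4 of 13 risen, 2 fallen and a median of 0.50. The list held 22 genes, all on the array, of which 13 passed the intensity filter. Khdc3 did so only through arrays other than the 129Sv wild types. Ooep, a part of the maternal complex beneath the egg surface, rose from 309, 338 and 228 to 2213, 1468 and 1778 (6.23-fold, limma adjusted p = 5.35e-07). Khdc3, another part of that complex, was at 8.17, 7.47 and 5.75 against 73.0, 63.6 and 44.0 (at least 3.68-fold higher). Nobox, a homeobox factor of oocytes, was at least 2.58-fold higher and Zar1 at least 2.28-fold, but Zar1 did not pass with the title number as a covariate. Nlrp4f fell from 705, 764 and 764 to 80.5, 92.2 and 261, with replicate 3 the highest knockout array (5.96-fold, limma adjusted p = 0.0163, up to 0.0801 without 1 array). Padi6 was at least 1.73-fold lower, with an adjusted p of up to 0.103 without 1 array. Without wild-type replicate 1, 1 gene of this list fell, and without knockout replicate 1 or 2 or wild-type replicate 2 or 3 none did. The zona pellucida genes Zp1, Zp2 and Zp3 and the oocyte growth factors Gdf9 and Bmp15 were not among the tested genes.

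Sertoli cells, which surround the germ cells and carry Dmrt1 themselves, had 5 of 25 markers lower and none higher, with a median of -0.23. Their summed intensity was 44200, 44210 and 41200 in wild type and 38320, 32850 and 37450 in knockout, and the groups did not overlap. Taken singly, 28.8% of all tested genes had no overlap either, which should be kept in mind for the sums of later lists too. Cst9, a cystatin gene also called testatin, fell from 3773, 3572 and 3369 to 1599, 1461 and 1599 (2.30-fold, limma adjusted p = 6.13e-07). Hsd17b3, which makes testosterone from androstenedione in fetal Sertoli cells, fell from 2534, 2668 and 2587 to 1292, 914 and 1242 (2.28-fold). Fshr, the receptor of follicle stimulating hormone, was at 22.3, 21.7 and 18.5 against 6.96, 5.31 and 7.87, below 16 in the knockout (at least 1.30-fold), and its call was lost with values below a log2 intensity of 4 set to 4.

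The defining Sertoli genes did not pass. Sox9 had 891, 861 and 738 against 784, 686 and 580 (-0.29 ± 0.17, limma adjusted p = 0.381), Dhh 1633, 1576 and 1337 against 1252, 1127 and 1457, and Amh 198, 136 and 176 against 119, 134 and 182. All 3 had overlapping groups. Wt1 and Ptgds differed by 0.23 ± 0.10 and -0.06 ± 0.14. Hsd17b1 (2.01-fold) and Inhbb (1.34-fold) were lost without single 129Sv arrays, knockout replicates 1 and 2 and wild-type replicates 1 and 2 among them (limma adjusted p up to 0.108 and 0.141). Without any one of those 4 arrays, 3 Sertoli genes fell.

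Markers of other somatic cells passed in few cases. Of 9 fetal Leydig cell genes none passed in limma, and 1 passed without knockout replicate 3. An unadjusted limma p under 0.05 was seen for 3 of the 9, all lower. Among all 12726 tested genes it was seen for 2675, of which 1396 were lower, and these counts stand beside the later lists too. The summed intensities of the Leydig cell genes were 36970 to 39790 in wild type and 32540 to 35640 in knockout, without overlap. Of 20 peritubular and interstitial genes none passed and 2 had an unadjusted p under 0.05 in limma, and 1 passed without knockout replicate 1, with overlapping sums of 42310 to 45600 and 41430 to 45990. Star and Cyp17a1, which Leydig cells use to make androgens, differed by -0.29 ± 0.14 and -0.24 ± 0.16. Of 18 endothelial genes 2 fell, Flt4 (1.59-fold) and Sox7 (1.71-fold), and the sums of the list were 6150 to 6248 against 5317 to 5636. The groups were apart in these sums, and both calls were lost without any one of knockout replicate 1, knockout replicate 3, wild-type replicate 1 or wild-type replicate 3 (limma adjusted p up to 0.113 and 0.0925).

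Markers of blood and of neighbouring tissue were looked at too. Of 16 macrophage and leukocyte genes Gzma alone passed, whereas Csf1r differed by 0.01 ± 0.41 and the sums were 3160 to 4377 against 2793 to 3383. None of 9 red blood cell genes and none of 4 adrenal cortex genes passed in limma, with 0 and 1 at an unadjusted p under 0.05, and 1 adrenal gene passed without wild-type replicate 2. Of 13 genes of mesonephros and duct epithelium, 2 rose, namely Cdh1 and Lhx1, and Pax8 fell from 63.4, 75.8 and 84.2 to 12.3, 15.9 and 41.0 (3.69-fold). The sums of that list were 5944 to 6890 against 8941 to 10000, without overlap. Cdh1, also counted with the pluripotency genes outside the network, made up a large part of that rise. The median of the list was 0.45, 11 of the 13 were above 0, and 7 were higher and 1 lower at an unadjusted p under 0.05 in limma, against 2675 of all 12726 genes in either direction. Krt8, Krt18 and Cdh16 did not pass, at 0.26, 0.21 and 0.01, and Pax2 and Gata3 were not among the tested genes. The number that rose was 4 without knockout replicate 3, B6 wild-type replicate 2 or B6 wild-type replicate 3, 5 without B6 knockout replicate 3 or with the 129Sv arrays alone, and 6 with array weights. Pax8 and Gzma did not pass with the title number as a covariate. Of 10 ovarian somatic genes, Rspo1, Lef1 and Sp5 rose (2 of the 3 without any one of the 6 arrays), and the granulosa genes Foxl2, Cyp19a1 and Esr2 were not among the tested genes. The part of these cells in the results above was not tested.

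Of 11 genes of neurons, glia and neural crest, Th, the enzyme that makes the precursor of dopamine, passed alone, at 9.90, 9.03 and 7.00 against 42.6, 30.1 and 28.8 (at least 2.08-fold higher). Stmn2 and Map2 differed by 0.28 and 0.21, and without knockout replicate 2 another gene of the list passed. Of 6 skeletal muscle genes, Tnni1 rose from 73.4, 74.7 and 60.3 to 181, 142 and 154 (2.29-fold). Tnnc2 fell at least 2.52-fold, but not without knockout replicate 1 or 2 or wild-type replicate 3 (limma adjusted p up to 0.0637). Myod1, Acta1 and Ckm were not among the tested genes.

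Genes of cell division showed no call. None of 28 tested passed in either direction in limma and 1 had an unadjusted p under 0.05, and 1 passed with the mean of a gene's probe sets, with a median of 0.02 and sums of 58690 to 62570 against 61050 to 66720. Mki67, a marker of cycling cells, had 2448, 3342 and 2539 against 2699, 1997 and 2074 (-0.30 ± 0.14, limma adjusted p = 0.254). Of 25 genes of the G1 phase, 4 rose and 1 fell. Ccnd1, the gene of cyclin D1, rose from 493, 447 and 460 to 704, 812 and 743 (1.61-fold). Ccnd2, that of cyclin D2, fell from 3180, 2467 and 2951 to 1961, 2147 and 2205 (1.36-fold). Neither pair of groups overlapped.

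Cdkn1a, the gene of the inhibitor p21, rose from 84.5, 102 and 112 to 189, 299 and 299 (2.60-fold), and Mycl 2.54-fold. With the title number as a covariate no G1 gene rose, and Ccnd2 lost its call without knockout replicate 1 or 2 or wild-type replicate 1 or 3 (limma adjusted p up to 0.132). Pmaip1, the gene of the BH3 protein NOXA, rose from 582, 503 and 565 to 1726, 2124 and 1600 (3.28-fold, limma adjusted p = 0.00114). Of 21 genes of the p53 and BCL2 family it rose with Cdkn1a, and Bcl2l11, the gene of BIM, fell 1.48-fold but not without knockout replicate 1 or wild-type replicate 1 or 3 (limma adjusted p up to 0.114). Mcl1 and Bcl2l1 differed by 0.04 and -0.07.

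Immediate early genes, which respond within minutes to growth factors and to tissue handling, had 3 of 18 lower. Egr1 fell from 1669, 1458 and 1599 to 664, 481 and 691 (2.60-fold, limma adjusted p = 6.15e-05), while Fos and Jun differed by -0.21 and 0.14 and did not pass. Fosl2 and Hspa1a lost their calls when single 129Sv arrays were left out (limma adjusted p up to 0.133 and 0.14). Without any one of knockout replicates 1 and 3 and wild-type replicates 1 and 3, 1 gene of this list fell. No imprinted gene of 23 passed in limma and 3 had an unadjusted p under 0.05, and 1 passed without knockout replicate 3, with Igf2 at 0.04 and Peg3 at 0.01. Of 24 Polycomb and heterochromatin genes, L3mbtl2 (1.86-fold) and Cbx7 (1.98-fold) rose, a share of 8.33% beside 4.07% of all genes, and none fell. Cbx7 did not pass without knockout replicate 1 or wild-type replicate 1 or 3, leaving 1 risen gene, and 3 rose without knockout replicate 3 (limma adjusted p up to 0.0648). L3mbtl2 did not with the title number as a covariate or without the 2 arrays of the highest Actb ratios (limma adjusted p = 0.0712).

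The effect in 129Sv was set against the effect of the same knockout in B6 by testing the difference of the 2 effects. It passed for 167 of the 12726 genes, or 1.31%. For 142 genes, 1.12%, the 129Sv effect was the more positive, and for 25, 0.196%, the more negative. Among genes that rose in 129Sv the adjusted p was smallest for Dnmt3b, followed by Cdhr1. The Dnmt3b log2 difference was 1.91 ± 0.13 in 129Sv and 0.00 ± 0.13 in B6, so that the effects differed by 1.91 ± 0.18 (limma adjusted p = 0.000227). Cdhr1 differed by 3.61 ± 0.38 (limma adjusted p = 0.00044).

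Among the B6 arrays, knockout replicate 3 stood apart, with 1008 and 850 genes over 2-fold away from knockout replicates 1 and 2, which were 98 genes apart from each other. Its summed intensity over the pluripotency network was 8441, within the 8013 to 9866 of B6 wild type, against 11320 and 11070 in the other B6 knockouts. Over the pluripotency genes outside the network it was 11200, also within the wild-type range of 10730 to 13070, against 16520 and 16540. The B6 effects of Nanog, Sox2 and Dnmt3l are therefore also given without that array. So are the differences of effects of these genes and of Zfp42, Otx2, L1td1 and Gdf3. All other B6 effects below include it.

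Several pluripotency and epiblast genes had a larger rise in 129Sv. Nanog rose by 3.37 in 129Sv and by 1.70 in B6, a difference of 1.67 ± 0.31 (limma adjusted p = 0.0208), and Sox2 by 2.84 and 1.05, a difference of 1.79 ± 0.35 (limma adjusted p = 0.0257). Without B6 knockout replicate 3 the B6 rises were 1.89 for Nanog and 1.40 for Sox2, and the differences were 1.47 and 1.45 (limma adjusted p = 0.0244 and 0.0102). Nanog lost this call without 129Sv knockout replicate 2, 129Sv wild-type replicate 3 or B6 wild-type replicate 2 (limma adjusted p up to 0.0743). Sox2 lost it without 129Sv knockout replicate 2 or 3, 129Sv wild-type replicate 1 or 3, or B6 wild-type replicate 2 or 3 (limma adjusted p up to 0.0805). Zfp42 differed by 1.94 in 129Sv and by -0.98 in B6 (difference 2.91 ± 0.41, limma adjusted p = 0.00314). Without B6 knockout replicate 3 the Zfp42 difference was 2.48. Sox3 and Pou3f1 also passed, at 3.10 ± 0.46 and 2.26 ± 0.31. Zfp42, Sox3, Pou3f1, Dnmt3b and Cdhr1 passed with any one array left out. For Otx2, L1td1 and Gdf3 the difference did not pass, although it was over 2 on the log2 scale (limma adjusted p = 0.0544, 0.0528 and 0.0714). Without B6 knockout replicate 3 it was below 2 for each, at 1.77, 1.96 and 1.58, and L1td1 and Gdf3 passed (limma adjusted p = 0.0618, 0.0411 and 0.0465).

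Germ cell markers as a group were lower in the B6 knockouts. The general germ cell genes had a median log2 difference of 0.02 in 129Sv and -0.96 in B6, and the piRNA genes -0.28 and -1.15. In B6 the summed intensity of the general germ cell genes was 18390 to 20860 in wild type and 9112 to 14320 in knockout, and that of the piRNA genes 24630 to 32360 and 10870 to 13670, without overlap in either. The part of this marker change in the differences of single germ cell genes was not tested.

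Some germ cell genes had an effect that was less negative in 129Sv. Dnmt3l differed by -0.82 in 129Sv and by -4.55 in B6, a difference of 3.73 ± 0.73 (limma adjusted p = 0.0266), and Morc1, a repressor of transposons in male germ cells, by -0.71 and -2.45 (1.74 ± 0.27, limma adjusted p = 0.00661). Morc1 passed with any one array left out, but Dnmt3l lost the call without any one of 7 arrays (limma adjusted p up to 0.0787), namely 129Sv knockout replicate 3, each 129Sv wild type, B6 knockout replicate 2 and B6 wild-type replicates 2 and 3. Without B6 knockout replicate 3, Dnmt3l differed by -5.34 in B6, and the difference of effects was 4.52. Dmrt1 itself differed by -2.64 in 129Sv and -3.72 in B6 (1.08 ± 0.24, limma adjusted p = 0.045), a call lost without any one of 10 of the 12 arrays, B6 knockout replicate 1 and B6 wild-type replicate 1 being the exceptions. For Piwil1, Tdrd9, Ldhc and Drc1 the difference of effects did not pass (limma adjusted p = 0.168, 0.319, 0.117 and 0.794). Svs4, Rph3a and Asb17 had the more negative effect in 129Sv, with differences of -3.05, -2.45 and -2.50. Rph3a passed with any one array left out, whereas Svs4 lost the call without any one of 6 arrays and Asb17 without any one of 8, 129Sv knockout replicates 1 and 2, 129Sv wild-type replicates 1 and 3 and B6 wild-type replicate 2 being common to both (limma adjusted p up to 0.102 and 0.109).

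The count of 167 was sensitive to single arrays. Among 129Sv arrays, leaving out a wild-type replicate gave 41, 73 and 50 for replicates 1, 2 and 3, and leaving out a knockout replicate gave 107, 72 and 75. Among B6 arrays a wild-type replicate left out gave 152, 48 and 73, and a knockout replicate left out 300, 111 and 180. Without B6 knockout replicate 3, 140 of the 167 were among the 180, and 46 of the 48 named genes kept the call. With any one array left out, 24 of the 48 kept it. B6 knockout replicate 3 had an Actb ratio of 6.30, the highest of the 12 arrays.

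**Figure D5:**
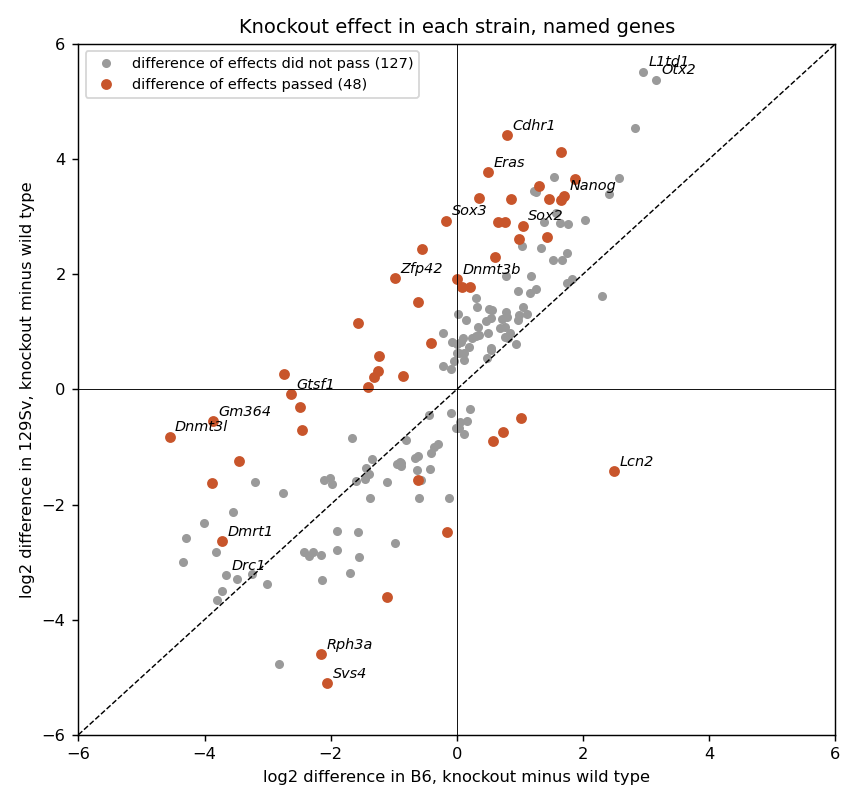
Log2 difference between knockout and wild type in 129Sv (vertical axis) against that in B6 (horizontal axis) for 175 named genes that passed in 129Sv or differed between the strains. Red points are the 48 whose effects differed by the limma test of the difference, grey points the other 127, and the dashed line marks equal effects. Dnmt3b lies near 0 in B6 and at 1.91 in 129Sv.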

How the data were processed

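RNA of embryonic day 15.5 testes was measured on 12 Affymetrix arrays, 3 for each of 4 groups of strain and genotype. The deposited values are intensities on a linear scale that the authors made with GCRMA, per the submitters' processing notes, version not given in the sources used here. GCRMA corrects for background by probe sequence and equalises the arrays, so low intensities are compressed and the arrays' own brightness is lost. The number of arrays limits the precision.

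Log2 was taken. Controls were left out, and the probe set with the highest mean stood for each gene, named by the platform annotation. The gene was tested if that probe set had a log2 of at least 4 on at least 3 of the 12 arrays. A gene whose probe set failed this filter was not tested, even where another of its probe sets passed. Of 45101 probe sets, 34958 had 1 gene, 932 several and 9211 none. Group means were fitted in limma 3.58.1 (R 4.3.3) on all 12 arrays, with a variance trend, 8 residual and 6.711 prior degrees of freedom, and Benjamini-Hochberg adjustment over 12726 genes at 0.05. Tables and figures were made in Python 3.11.15. Tested on simulated data for 129Sv, with 200 of 12726 genes changed, the fit found 24% of changes of 0.5 on the log2 scale, 82% of 1 and 100% of 2 and of 4, and 6.13% of calls were false. For the difference between strains it found 8%, 52%, 86% and 100%, and 10.87% of calls were false. The simulation was 1 draw of independent genes with normal noise, and the spread of a gene was the same in all groups. An array that stands apart was not simulated, so these shares may differ for the data themselves.

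The genes named were up to 20 in each direction with the largest difference among called, non-overlapping genes with a mean log2 of at least 5 in the higher group, up to 10 with a mean of at least 10, up to 8 with the largest difference between strains, members of 34 gene lists, and Dmrt1. Members and lists were chosen with earlier results of these data known. Alternatives changed the filter, floor, pseudocount, normalisation, probe set rule, variance model, covariates, threshold and arrays. Same-numbered arrays did not deviate together (correlations of -0.14, -0.466 and -0.086 in 129Sv), so the replicate numbers were not used for pairing.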

Additional observations from a re-analysis of the deposited data

Results flagged for a closer look

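The effect of the knockout differed between 129Sv and B6 in the following named genes by the limma test of the difference at an adjusted p under 0.05. The value in brackets is the 129Sv effect minus the B6 effect on the log2 scale, with B6 knockout replicate 3 included. Without that array, 31 of these 48 differences were nearer 0, and Dmrt1 and Lcn2 did not pass.

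Genes that rose in 129Sv and had the more positive effect there were Cdhr1 (3.61), Trh (2.46), Eras (3.28), Mep1b (1.78), Apela (2.23), Nanog (1.67), Oit1 (2.97), Pdzk1 (1.85), Panct2 (2.44), Skor1 (1.64), Crabp2 (2.15), Sox2 (1.79), Ooep (1.21), Fbxo15 (1.69), Dnmt3b (1.91), Lin28a (2.14), Sox3 (3.10), Zic5 (2.99), Zfp42 (2.91), Nr5a2 (1.61), Pou3f1 (2.26), Zic2 (1.57), Lef1 (1.21), Nobox (1.70) and Spag16 (2.71).

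Genes that fell in 129Sv and had the less negative effect there were Dmrt1 (1.08), Afp (2.24), Tktl1 (2.21) and Morc1 (1.74). Genes that did not pass in 129Sv itself but had the more positive effect there were Dnmt3l (3.73), Gm364 (3.31), AU018091 (3.02), Gtsf1 (2.54), Tdrd5 (1.44), Asz1 (1.10), Sycp3 (1.57), Taf7l (1.53), Nlrp14 (2.19) and Ccnb1ip1 (1.82).

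Genes that fell in 129Sv and had the more negative effect there were Svs4 (-3.05), Rph3a (-2.45), Asb17 (-2.50), Ptgr1 (-0.96), Klrb1a (-2.32), Kcp (-1.49) and Fxyd2 (-1.47). Lcn2 (-3.91) and Zfyve27 (-1.51) did not pass in 129Sv itself and also had the more negative effect there.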

How the results depend on the processing

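No called result changed direction under the 29 alternatives. Some differences that did not pass crossed 0, for example Ddx4 with -0.062 to 0.178. Of 163 named genes called in 129Sv, 88 kept the call under each alternative that was run for them, 25 to 27 a gene, and 75 lost it under at least 1. Of 29 named genes not called, 9 passed under at least 1 alternative. The 2-fold test and the threshold of 0.01 were not counted for single genes. The 1058 calls (518 higher, 540 lower) became 92 (59 and 33) in a test against a 2-fold change, 533 (264 and 269) at an adjusted p under 0.01 and 2092 (1098 and 994) with array weights. With the filter at a log2 of 6 they were 696, 338 of them lower. As a covariate, the title number left 347 (166 and 181), and 66 listed members passed in place of 125. Without the 2 129Sv arrays of the highest Actb ratios, an alternative chosen after seeing the data, they were 484 (268 and 216), with 81 listed members. The 167 genes whose effects differed between strains became 4 in the 2-fold test, 29 at 0.01, 779 with array weights, 74 with every probe set, 108 with the mean of probe sets, 20 with the title number and 57 without those 2 arrays. Leaving out 1 array gave 626 to 1562 calls (300 to 746 higher, 292 to 816 lower), 41 to 300 strain differences, 93 to 157 listed members and a Dmrt1 difference of -2.724 to -2.545. With the replicate block 977 genes passed (455 and 522). Except where the alternative itself removes genes or arrays or raises the threshold, the cause was not tested. Signals near background limit what can be seen of low genes.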

Other observations

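Probe sets without a single gene name were tested separately. Of those that rose, 1438737_at had intensities of 15.3, 6.81 and 8.52 in wild type and 295.7, 464.8 and 286.8 in knockout (log2 difference 5.15 ± 0.31, limma adjusted p = 2.24e-06). The probe set 1423424_at rose by 3.83. Of those that fell, 1453217_at, which is assigned to several genes, had 3830, 4550 and 4305 in wild type and 152.4, 198.9 and 1646 in knockout, so that knockout replicate 3 lay between the groups. The probe set 1456563_at differed by -3.30. Where a called gene had another probe set above the filter, which held for 336 genes, all its other probe sets differed in the same direction in 300, or 89.3%. No tested gene had probe sets called in opposite directions, which would need both to pass when every probe set was tested. Large differences against the call did occur. The other probe set of Cep85, a gene called lower, differed by 4.05.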
